A study of Homo sapiens with 8 samples.

Results

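The zinc transporters examined here are 10 genes of the SLC30 and SLC39 families, taken from the deposited table by symbol. The 4 SLC30 genes are SLC30A1, SLC30A4, SLC30A5 and SLC30A9. The 6 SLC39 genes are SLC39A1, SLC39A6, SLC39A7, SLC39A9, SLC39A10 and SLC39A14. The table lists 57773 features, among them 14 further genes of the same families. RNA-seq was run on C4-2 cells, a human line of castration-resistant prostate cancer. All cells grew in T medium with heat-inactivated serum. Exposure lasted 24 h, and RNA was sequenced from 3 libraries of PBS vehicle, 3 of metformin at 5 mM and 2 of phenformin at 1 mM. Both drugs are biguanides, which inhibit mitochondrial respiration and are given, or were formerly given, for type 2 diabetes.

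Most SLC30 proteins (ZnT) carry zinc out of the cytosol, either across the plasma membrane or into organelles. SLC39 proteins (ZIP) carry zinc into the cytosol, either from outside the cell or from organelle stores. Normal luminal cells of the prostate accumulate zinc and secrete citrate, and prostate tumors hold less zinc. Free cytosolic zinc is sensed by the transcription factor MTF1, which binds metal response elements in the promoters of metallothionein genes and of SLC30A1. Neither zinc nor protein was measured in these libraries, so every value is an RNA level.

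Because SLC30A1 moved apart from the other transporters, the DNA around transcription start sites was searched for the core of the metal response element, written TGCACNC or TGCGCNC, on both strands. RefSeq windows of 300 bases (250 before to 50 after the start, GRCh38.p14) were available for 9 of the 10 genes. SLC30A1 was the only one of these with 2 matches in a window. That is 1 of the 12 windows of these genes, near the 8.6% of all 35116 windows that held at least 2. Of the 12 windows of these genes, 5 held at least 1 match, beside 29.6% of all windows. The stretches with the matches are printed below on the strand of the gene, and capitals mark each match, which reads GAGTGCA where the core lies on the other strand.
SLC30A1, upstream, chr1:211579162-211579261, minus strand: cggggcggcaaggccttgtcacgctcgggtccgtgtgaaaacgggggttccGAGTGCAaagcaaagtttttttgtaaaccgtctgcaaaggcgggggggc
SLC30A1, after the start, chr1:211579120-211579149, minus strand: cgagaccgggccGAGTGCAgctgccgtggc
SLC30A4, upstream, chr15:45522856-45522895, minus strand: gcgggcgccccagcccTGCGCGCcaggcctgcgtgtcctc
SLC39A6, upstream, chr18:36129341-36129380, minus strand: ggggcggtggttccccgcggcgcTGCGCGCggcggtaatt
SLC39A1, upstream, chr1:153963748-153963787, minus strand: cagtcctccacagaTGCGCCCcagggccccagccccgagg
SLC39A10, after the start, chr2:195657248-195657275, plus strand: cggagaggagaTGCACACggcactcgag
In SLC30A1 the matches lay at bases -49 to -43 and 25 to 31, counted from the start with no base 0. For comparison, the window of MT2A, a metallothionein gene, held 8 matches and that of MT1X held 4. Of all windows, 0.601% held at least 4 and 0.074% at least 6. The 100 bases before the MT2A start show 3 of its 8 matches, the first as GTGTGCA, the core on the other strand.
MT2A, upstream, chr16:56608484-56608583, plus strand: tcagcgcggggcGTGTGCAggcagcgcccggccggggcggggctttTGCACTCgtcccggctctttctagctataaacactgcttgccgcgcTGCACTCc
A match is a string of letters and does not show that a factor binds there.

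Levels are given in RPKM, read counts scaled by gene length and by the mapped reads of the library, so levels of different genes can be set side by side. The read totals behind them were recovered from the steps of the RPKM values. PBS replicate 1 held 44774670 mapped reads, 2.93 times the median of the other libraries, which ranged from 13837455 to 15898491. PBS replicates 1 and 2 differed by little more than sampling noise (median chi-square per feature 0.487, where noise alone gives 0.455), so the calls on the 10 genes were also computed with both averaged as 1 library and without replicate 1. Neither changed a call on these genes against PBS. The counts behind single transporter values ran from 266 reads (SLC39A10 in phenformin replicate 2) to 15063 reads (SLC39A14 in PBS replicate 1). Nothing in the labels says that replicates were separate cultures, and the p-values may therefore reflect technical spread alone. All 8 luminal prostate markers summed here, KLK3 and KLK2 among them, were detected, and their summed level ran from 1059 to 1182 RPKM over the PBS libraries, from 484 to 522 over the metformin libraries and from 493 to 514 over the phenformin libraries. In PBS the sum was carried by KLK3, FOLH1 and KLK2, each of which was lower with both drugs. HOXB13 was also lower with both drugs (61.1 to 68.5 RPKM in PBS, 17.1 to 21.7 with metformin, 37.3 to 39.5 with phenformin). So was EPCAM (32.8 to 35.5, 23.9 to 25.2 and 21.6 to 23.2 in the same order). KRT8 (38.1 to 42.5, 38.4 to 46.2 and 41.1 to 43.1) and KRT18 (57.0 to 58.5, 59.7 to 71.3 and 74.0 to 77.5) were not lower. CDH1 was higher with metformin and lower with phenformin (81.3 to 82.3, 99.9 to 102 and 50.7 to 50.9). Basal markers summed to at most 0.216 RPKM and immune and endothelial markers to at most 1.05, with 3 of the 7 in the table at 0 in every library. Stromal markers, mainly VIM, summed to 6.09 to 6.82 RPKM (PBS), 10.3 to 12.1 (metformin) and 8.55 to 8.60 (phenformin). Neuroendocrine markers summed to 3.86 to 4.16, 1.23 to 1.58 and 3.10 to 3.23 RPKM in the same order. The part of these marker shifts in the transporter results was not tested. In bulk RNA, fewer cells of a type and less RNA per cell cannot be told apart.

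In PBS-treated C4-2 cells, SLC39 genes held the first 3 places among the 10 transporters. SLC39A7 was highest (78.8 ± 2.89 RPKM, SD, n = 3), followed by SLC39A6 (72.3 ± 2.68), SLC39A14 (48.9 ± 1.69) and SLC30A4 (42.7 ± 1.03). SLC39A9 (22.0 ± 0.239), SLC39A1 (17.5 ± 1.30), SLC30A5 (16.6 ± 0.176) and SLC30A9 (15.0 ± 0.459) formed a middle group. SLC39A10 (11.6 ± 0.203) and SLC30A1 (8.46 ± 0.127) were lowest. SLC39A1 and SLC30A5 were the only neighbours in this order whose libraries overlapped. The exporter SLC30A1 thus had the lowest RNA level of the 10 genes before drug exposure, at percentile 60.2 of all genes with at least 1 RPKM.

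**Figure D1:**
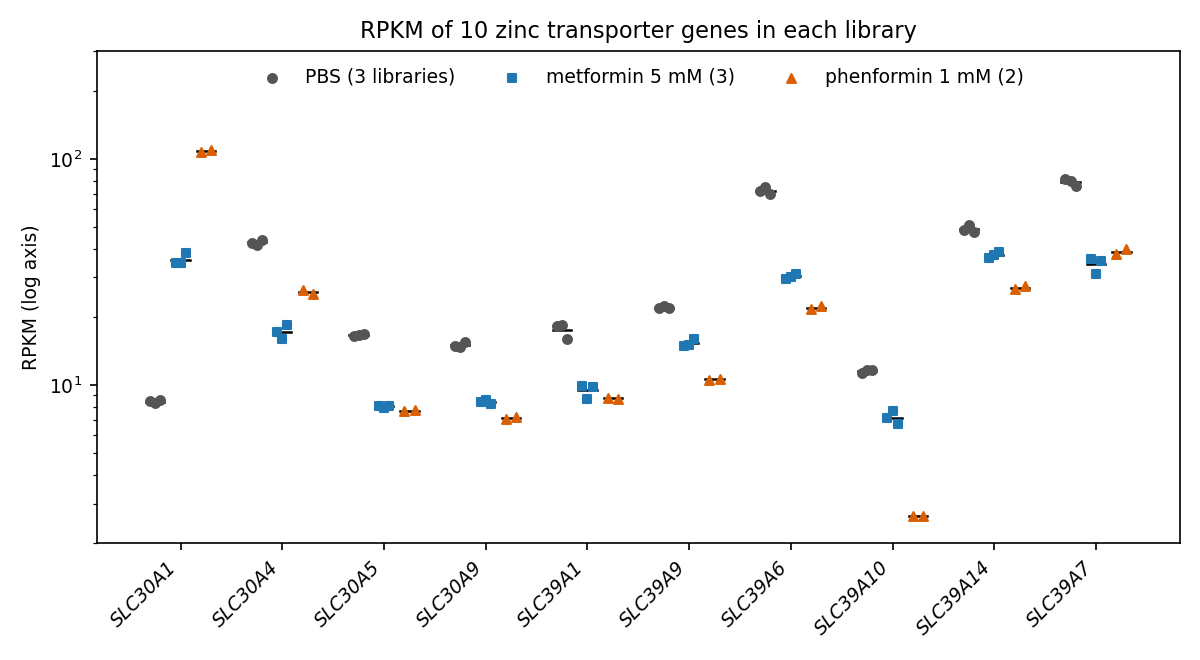
Levels of the 10 zinc transporter genes in each library, in RPKM on a log axis. Each point is 1 library (circles PBS, squares 5 mM metformin, triangles 1 mM phenformin) and each short bar is a group mean. SLC30A1 rises from the lowest place in PBS (mean 8.46 RPKM) to the highest with phenformin (mean 108 RPKM), while the points of the other 9 genes lie below their PBS points with both drugs.

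The question of the first comparisons was which RNAs differed after exposure to each drug. SLC30A1 RNA rose with both drugs and the other 9 transporter RNAs fell with both. With metformin, 1 of the 10 genes was called higher and 9 lower (limma, adjusted p under 0.05), where 28.2% of all 11730 genes tested were called higher and 54.8% lower. With phenformin the counts were again 1 and 9, where 31.2% of 12172 genes were called higher and 45.4% lower. In both comparisons the drug and PBS libraries of all 10 genes did not overlap, which held for 84.5% of all genes with metformin and 85.9% with phenformin. The median log2 change of the 10 genes was -0.85 with metformin, beside -0.30 over all genes, and -1.03 with phenformin, beside -0.15 over all genes. Because these medians over all genes were below 0 on the RPKM scale, changes relative to them are also given for some genes. The balance over all genes depends on the scale, and on the TPM scale 4588 genes were higher and 5016 lower with metformin and 5297 and 4008 with phenformin. Both comparisons share the PBS libraries. The drug doses differ as well, so the compound and the dose cannot be told apart in any contrast between the drugs.

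SLC30A1 (ZnT1) exports zinc across the plasma membrane. Its level was 8.50, 8.32 and 8.56 RPKM in the PBS libraries, 34.6, 34.8 and 38.3 with metformin, and 107 and 109.7 with phenformin. The 3 groups were far apart, with the highest PBS library below the lowest metformin library and the highest metformin library below both phenformin libraries. With metformin the fold change was 4.20 (95% interval 3.86 to 4.57, on the log2(RPKM + 0.1) scale), a log2 change of 2.07 (SE 0.052, limma adjusted p = 3.4e-08). With phenformin it was 12.7-fold (11.7 to 13.8), a log2 change of 3.66 (SE 0.052, limma adjusted p = 1.2e-09). By size of increase SLC30A1 stood at place 237 of 11730 genes with metformin and at place 29 of 12172 with phenformin. Across all alternative settings its log2 change stayed between 1.96 and 2.35 with metformin and between 3.53 and 3.94 with phenformin. The stretches printed above for SLC30A1 hold its 2 core matches, 1 on each side of the start, and 8.6% of all windows held at least 2.

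The other 3 SLC30 genes serve organelles, and their RNA fell. SLC30A4 (ZnT4) moves zinc into endosomes and secretory vesicles, and in mice its loss leaves milk short of zinc. SLC30A4 was at 42.6, 41.7 and 43.8 RPKM in PBS, 17.2, 15.9 and 18.4 with metformin, and 26.4 and 25.2 with phenformin. The metformin libraries were the lowest of the 3 groups and the phenformin libraries lay between. Its log2 change was -1.31 with metformin (SE 0.059, limma adjusted p = 4.2e-07), the deepest fall of the 10 genes in that comparison, and -0.73 with phenformin (SE 0.063, limma adjusted p = 9.2e-06), the smallest fall in that one.

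SLC30A5 (ZnT5) pairs with ZnT6 in the early secretory pathway to load zinc onto enzymes such as alkaline phosphatases. SLC30A5 was at 16.5, 16.6 and 16.8 RPKM in PBS, 8.11, 7.92 and 8.13 with metformin, and 7.66 and 7.79 with phenformin. The drug libraries thus sat close together at 48.4% and 46.4% of the PBS mean (log2 change -1.04 and -1.10, limma adjusted p = 2.8e-07 and 1.2e-07). SLC30A9 (ZnT9) exports zinc from mitochondria. SLC30A9 was at 14.9, 14.7 and 15.6 RPKM in PBS, 8.44, 8.64 and 8.27 with metformin, and 7.07 and 7.22 with phenformin. Its log2 change was -0.82 with metformin and -1.06 with phenformin (limma adjusted p = 1.3e-06 and 2.3e-07).

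Of the SLC39 genes that act mainly at the cell surface, SLC39A1 (ZIP1) has been described as a main route of zinc uptake in prostate cells. SLC39A1 was at 18.2, 18.4 and 16.03 RPKM in PBS, 9.92, 8.72 and 9.85 with metformin, and 8.77 and 8.71 with phenformin. Both drug groups lay well under the lowest PBS library, and the metformin and phenformin libraries overlapped each other. The log2 change was -0.88 with metformin and -0.99 with phenformin (limma adjusted p = 1.2e-05 and 5.2e-06). SLC39A14 (ZIP14) carries zinc, iron and manganese. SLC39A14 was at 48.5, 50.8 and 47.5 RPKM in PBS, 36.6, 37.4 and 38.6 with metformin, and 26.5 and 27.4 with phenformin. Its fall with metformin was the smallest of the 9 (log2 change -0.38, SE 0.045, limma adjusted p = 7.8e-05) and only -0.08 relative to the median of all genes. With phenformin it fell by 0.86 on the log2 scale (limma adjusted p = 5.6e-07), or -0.70 relative to all genes.

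SLC39A6 (ZIP6, also LIV-1) and SLC39A10 (ZIP10) form a complex at the plasma membrane, and SLC39A6 is an estrogen-induced gene of breast cancer cells. SLC39A6 was at 71.9, 75.1 and 69.8 RPKM in PBS, 29.5, 30.03 and 31.1 with metformin, and 21.6 and 22.3 with phenformin. The groups were stepped, with phenformin lowest. SLC39A6 fell to 41.8% of the PBS mean with metformin (log2 change -1.26, SE 0.045, limma adjusted p = 1.5e-07) and to 30.4% with phenformin (log2 change -1.71, SE 0.046, limma adjusted p = 1.9e-08). SLC39A10 was at 11.4, 11.7 and 11.7 RPKM in PBS, 7.15, 7.67 and 6.74 with metformin, and 2.64 and 2.63 with phenformin. Its fall with phenformin was the deepest of the 10 genes, to 22.7% of the PBS mean (log2 change -2.09, SE 0.063, limma adjusted p = 3.1e-08), and 2.97% of all genes tested fell as far or further. With metformin SLC39A10 was at 62.0% of the PBS mean (log2 change -0.68, limma adjusted p = 1.2e-05), or -0.38 relative to the median of all genes.

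SLC39A7 (ZIP7) releases zinc from the endoplasmic reticulum and Golgi into the cytosol. SLC39A7 was at 81.2, 79.6 and 75.6 RPKM in PBS, 36.0, 31.0 and 35.4 with metformin, and 37.99 and 39.8 with phenformin. Its level was thus less than that of every PBS library with both drugs (log2 change -1.21 and -1.02, limma adjusted p = 9.4e-07 and 2.1e-06). SLC39A9 (ZIP9) is found at the Golgi and plasma membrane. SLC39A9 was at 21.9, 22.3 and 21.8 RPKM in PBS, 14.96, 14.97 and 15.98 with metformin, and 10.5 and 10.7 with phenformin. It fell by 0.52 on the log2 scale with metformin (limma adjusted p = 1.3e-05) and by 1.05 with phenformin (limma adjusted p = 2.0e-07). Relative to the median of all genes these SLC39A9 changes were -0.22 and -0.89.

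**Figure D2:**
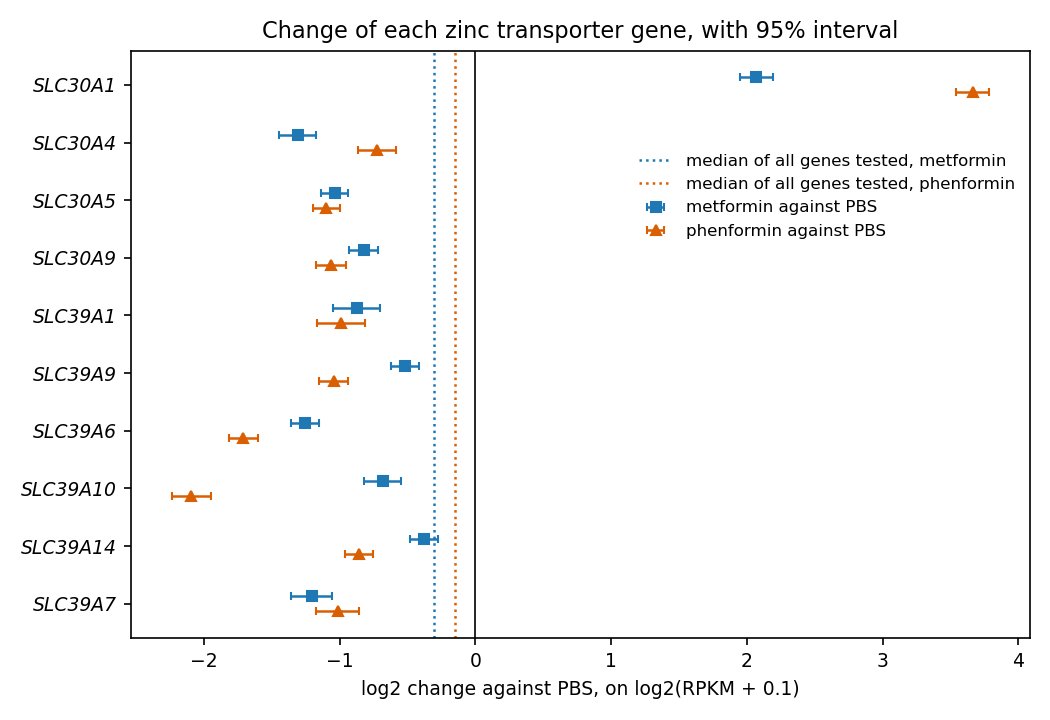
Log2 change of each zinc transporter gene against PBS, with 95% intervals from limma (squares metformin, triangles phenformin). Dotted lines mark the median of all genes tested, -0.30 with metformin and -0.15 with phenformin. SLC30A1 lies to the right of 0 with both drugs and the other 9 genes to the left, with SLC39A14 under metformin closest to the dotted line.

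All calls on the 10 genes against PBS held when libraries were rescaled by their median, a trimmed mean, TPM totals or quantiles, and when each library was left out in turn. Tested against a change of at least 1.5-fold (limma treat), SLC39A9, SLC39A10 and SLC39A14 were no longer called with metformin, nor SLC30A4 with phenformin. Over all alternatives the smallest log2 changes of these were -0.26, -0.42 and -0.11 for the first 3 and -0.46 for SLC30A4. Exon overlaps were taken from a GRCh38 annotation, while the counts were made on GRCh37.p13. Exons of 4 of the 9 transporters that fell overlap a gene on the opposite strand that the table also lists. Whether strand was used in counting is not known, so their reads are uncertain there. SLC39A1 also overlaps AL358472.7, a protein-coding gene on the same strand that the table does not list. The opposite-strand partners had mean levels of 13.8, 3.75 and 6.21 RPKM (HMGN2P46, beside SLC30A4), 35.2, 12.0 and 18.9 (CREB3L4, beside SLC39A1), 11.1, 9.23 and 13.1 (RXRB, beside SLC39A7) and 74.5, 76.1 and 114 (ERH, beside SLC39A9) in PBS, metformin and phenformin.

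Between the drugs at their different doses, SLC30A1 was 3.02-fold higher in phenformin than in metformin libraries (2.78 to 3.28, log2 difference 1.59, limma adjusted p = 5.3e-07). SLC39A10 was 2.66-fold lower (log2 difference -1.41, SE 0.063, limma adjusted p = 1.6e-06). Among the 10 genes 3 were called higher with phenformin and 5 lower, where 39.5% and 25.6% of all 12172 genes were called. SLC30A4 was 1.499-fold higher (log2 difference 0.58, limma adjusted p = 7.0e-05). SLC39A7 also passed (log2 difference 0.19, limma adjusted p = 0.035), but not in 11 of 22 alternative settings. Leaving out metformin replicate 2 gave an adjusted p of 0.053, phenformin replicate 1 gave 0.068 and phenformin replicate 2 gave 0.18 (limma). The genes lower with phenformin were SLC39A10, SLC39A9 (-0.52), SLC39A14 (-0.48), SLC39A6 (-0.46) and SLC30A9 (-0.24), all log2 differences. SLC30A5 (-0.06, 95% interval -0.16 to 0.04) and SLC39A1 (-0.12, -0.29 to 0.06) did not pass, with limma adjusted p of 0.25 and 0.22. Relative to the median of all genes, which was 0.13, SLC39A7 differed by only 0.06.

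The order of the transporter levels differed between the groups. With metformin, SLC39A14 (37.5 ± 1.04 RPKM), SLC30A1 (35.9 ± 2.08), SLC39A7 (34.1 ± 2.72) and SLC39A6 (30.2 ± 0.786) came first, and each of these overlapped its neighbour in the order (SD, n = 3). SLC30A4 and SLC39A9 overlapped as well (17.2 ± 1.25 and 15.3 ± 0.587 RPKM), and SLC39A10 was lowest at 7.19 ± 0.462. With phenformin SLC30A1 stood alone at the top (108 ± 1.82 RPKM, n = 2), at percentile 98.0 of the genes with at least 1 RPKM. SLC39A7 followed at 38.9 ± 1.31 RPKM and SLC39A14, SLC30A4 and SLC39A6 lay between 22.0 and 26.9. SLC39A10 was lowest at 2.64 ± 0.006 RPKM, at percentile 22.0, and no neighbours overlapped among the phenformin libraries.

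Summed over genes, the 6 SLC39 transporters were at 251.1 ± 7.88 RPKM (SD over libraries) in PBS, and with the drugs at 134 ± 3.94 (metformin) and 109.8 ± 2.51 (phenformin). The sum of the 4 SLC30 transporters was 82.9 ± 1.72 RPKM in PBS, 69.6 ± 3.11 with metformin and 149 ± 1.16 with phenformin. The ratio of the SLC39 sum to the SLC30 sum was therefore 3.03 ± 0.157 in PBS, 1.92 ± 0.0396 with metformin and 0.736 ± 0.0111 with phenformin, with no overlap of libraries between groups. SLC30A1 alone made up 10.2% of the SLC30 sum in PBS, 51.5% with metformin and 72.7% with phenformin. Without SLC30A1 the SLC30 sum was 74.4, 33.7 and 40.7 RPKM in PBS, metformin and phenformin. With metformin that sum fell by a larger share than the SLC39 sum, so the lower metformin ratio rested on SLC30A1 alone. With phenformin it fell by a smaller share than the SLC39 sum. With all 24 family genes in the table the ratio was 2.95, 2.13 and 0.879. These sums are descriptions of RNA and carry no test.

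**Figure D3:**
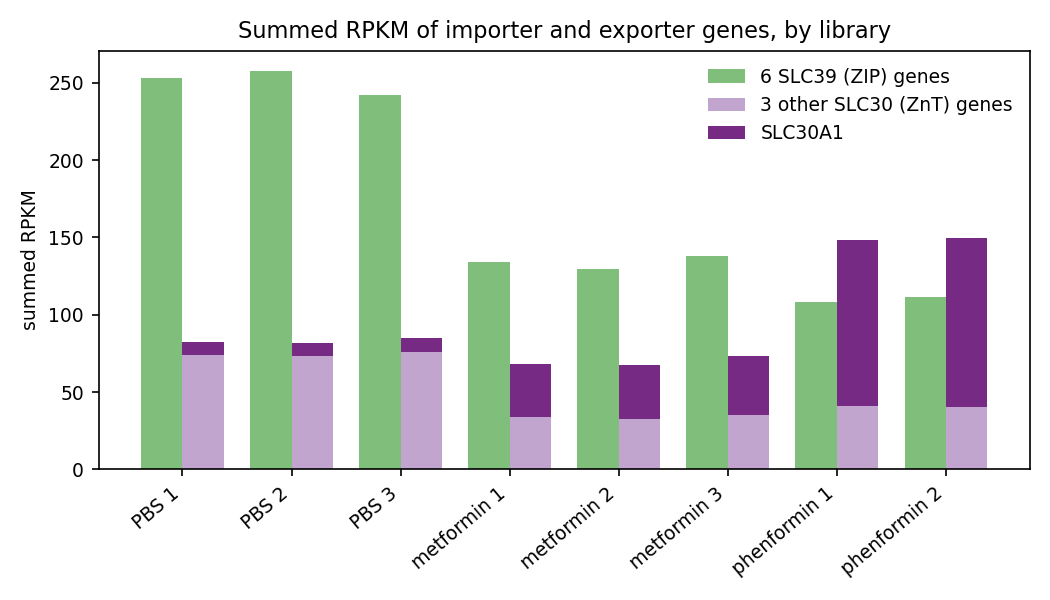
Summed RPKM of the 6 SLC39 genes (green) and of the 4 SLC30 genes (light purple for the 3 other genes, dark purple for SLC30A1) in each library, on an axis from 0. The SLC39 sum is above the SLC30 sum in all PBS and metformin libraries and below it in both phenformin libraries.

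Of the 14 other SLC30 and SLC39 genes, 8 passed the filter on low values with metformin (6 called lower) and 9 with phenformin (5 lower). Over all genes 54.8% were lower with metformin and 45.4% with phenformin. Higher calls are not counted, because they fell only on SLC30A2 and SLC30A10, which passed through the drug libraries alone. SLC30A2 (ZnT2), a vesicular transporter whose human mutations leave breast milk low in zinc, was at 0.160 ± 0.009 RPKM in PBS, 0.367 ± 0.073 with metformin and 2.49 ± 0.159 with phenformin. It was tested only because the phenformin libraries put it over the filter, so its levels are given as a description with no test. SLC30A10, a manganese exporter, was at 0.422 ± 0.068 RPKM in PBS, 1.18 ± 0.102 with metformin and 1.16 ± 0.157 with phenformin. It too passed the filter only through the drug libraries, and no test is given. The levels of both genes were low beside most of the 10 transporters. In the RefSeq windows of the other family genes, SLC30A2 held 3 core matches, where 2.3% of all windows held at least 3. SLC30A3, which is near 0 RPKM, held 2 in 1 window and 1 in another. SLC30A6, SLC39A3, SLC39A5, SLC39A8 and SLC39A13 each held at most 1 in a window. SLC30A7, SLC30A10, SLC39A2, SLC39A11 and SLC39A12 held none.

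SLC30A6, the partner of SLC30A5, was at 8.93 ± 0.2996 RPKM in PBS and fell with both drugs (log2 change -1.40 and -1.10, limma adjusted p = 2.4e-07 and 4.8e-07). SLC30A7, which also supplies zinc to enzymes in the Golgi, fell further (log2 change -1.59 and -1.79, limma adjusted p = 2.3e-07 and 1.1e-07). Among the SLC39 genes, SLC39A11 (-1.16 and -1.13) and SLC39A13 (-0.93 and -0.70) fell with both. SLC39A8, a zinc and manganese importer at 27.6 ± 1.43 RPKM in PBS, fell slightly (log2 change -0.28 and -0.35, limma adjusted p = 8.1e-04 and 1.8e-04). Its metformin change was 0.02 relative to all genes and was not called after median-centring (limma adjusted p = 0.10), and its phenformin change was not called on the TPM scale (limma adjusted p = 0.13). SLC39A4, an intestinal zinc importer, fell with metformin (-0.77) and was at -0.15 with phenformin (limma adjusted p = 0.16), a value whose sign turned on the TPM and quantile scales. SLC39A3 had values of 0.30 and 0.47 that did not pass (limma adjusted p = 0.11 and 0.10) but did pass under all 4 rescalings, without metformin replicate 2 (0.44) and without phenformin replicate 1 (0.86). SLC30A8 and SLC39A2 were listed at 0 in every library, and SLC30A3, SLC39A5 and SLC39A12 stayed under the filter.

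Of 18 genes for zinc sensing and buffering, 8 were tested with metformin (4 called higher, 3 lower) and 11 with phenformin (7 higher, 2 lower). Over all genes 28.2% and 54.8% were higher and lower with metformin and 31.2% and 45.4% with phenformin. The 3 lower with metformin include ZNF658, which passed the filter only through the PBS libraries, so that count is a description only. The 7 called higher with phenformin were metallothioneins, which are small zinc-binding proteins. Of these genes 3 (MT1B, MT1G and MT1H, named after their values were seen) passed the filter only through the phenformin libraries. Their higher calls follow from the filter, so the phenformin count of 7 is a description only and is not to be weighed against the share over all genes. With metformin 3 metallothionein genes were called higher. MT2A, a general metallothionein, was at 37.7, 33.9 and 32.9 RPKM in PBS, 155, 146 and 208 with metformin, and 1523 and 1680.4 with phenformin. Its log2 change was 2.26 with metformin and 5.52 with phenformin (limma adjusted p = 1.2e-06 and 1.5e-08). MT1X (2.40 and 5.35) and MT1F (2.69 and 5.98) rose as well, and MT1A was at 0.66 with metformin (limma adjusted p = 0.15, or 1.11 and 0.0052 without metformin replicate 1) and 2.87 with phenformin. Metallothionein genes are near-copies of each other, so their reads may be shared and single values are uncertain. MTF1, the zinc sensor, was the fourth gene called higher with metformin and was not called with phenformin, and is named here after its values were seen. ZNF658, a zinc-responsive repressor, fell with phenformin (log2 change -1.03, limma adjusted p = 1.2e-04). With metformin it was at 0.804 ± 0.076 RPKM beside 2.47 ± 0.116 in PBS and passed the filter only through the PBS libraries, so no test is given.

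**Figure D4:**
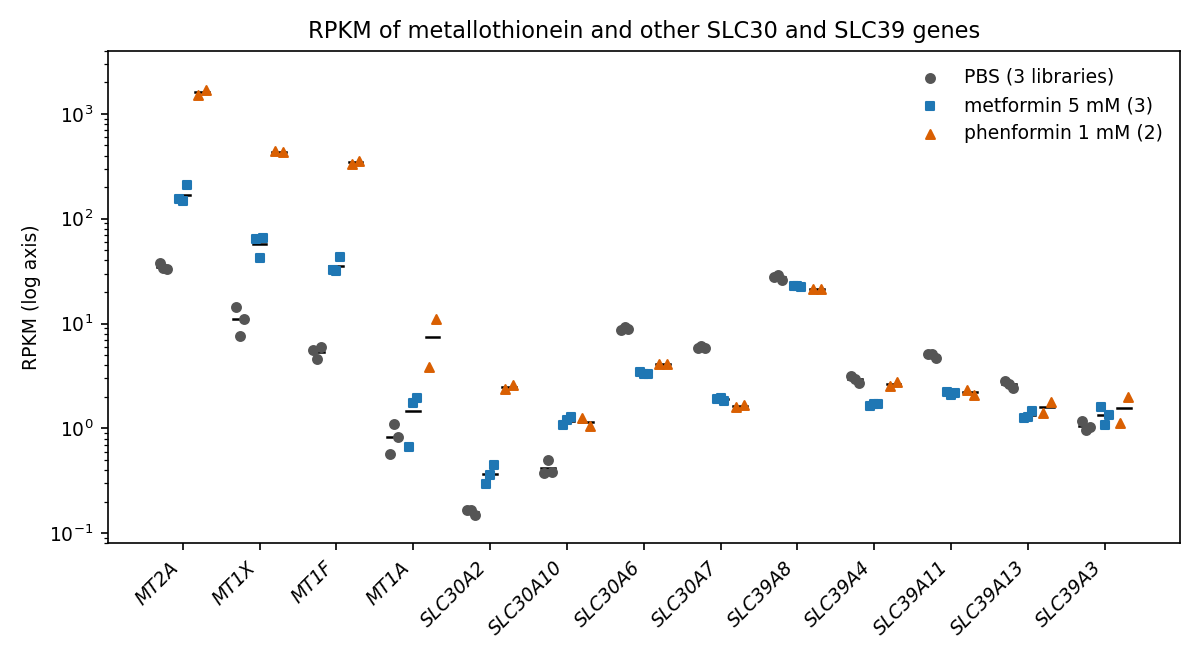
Levels of 4 metallothionein genes and 9 other SLC30 and SLC39 genes in each library, in RPKM on a log axis, with symbols as in the plot of the 10 transporters. The metallothioneins are highest in the phenformin libraries, as is SLC30A2, which passed the filter only through those libraries. SLC30A6 and SLC30A7 are lower in every drug library than in every PBS library, and the groups overlap for SLC39A3.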

How the data were processed

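The authors prepared mRNA libraries by a TruSeq protocol, sequenced 50-base reads on an Illumina HiSeq, and, per the study's methods, mapped and quantified them in CLC Genomics Workbench 7.0. The labels give the build as GRCh37.p13. The annotation release and the strand setting were not given in the sources used here. The deposited table holds RPKM per gene for 8 libraries. Groups come from the sample titles. The protocol text names PBS and metformin, and the titles add phenformin.

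Values were tested as log2(RPKM + 0.1) in limma 3.58.1 (R 4.3.3), with lmFit and eBayes with trend, and Benjamini-Hochberg adjustment over all genes at 0.05. Metformin was compared with PBS in those 6 libraries, for genes at 1 RPKM or more in at least 3. Both contrasts of phenformin (against PBS and against metformin) used 1 fit of all 8 libraries, for genes at 1 RPKM or more in at least 2. Whole reads were recovered from the RPKM steps for 25528 of 25529 features above 0 (99.9961%, within 0.01 read) and were used only for depths, replicate checks and a limma-voom alternative. Fits were run on simulated data in which far fewer genes changed than were called here. The simulation gives no error rate for these data.

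Named genes are the 10 transporters, the other SLC30 and SLC39 genes that passed the filter, up to 4 called and 2 uncalled genes of each further list, and the 5 profiles nearest SLC30A1. The members and lists were chosen with earlier results of these data known. Same-numbered replicates did not deviate together, so the numbers were not treated as pairs. The alternatives are other pseudocounts, filters, scalings, moderation, a 1.5-fold threshold, a replicate block, left-out libraries and, added after the data were seen, PBS replicates 1 and 2 as 1 library. Python 3.11.15 was used for tables. One luminal marker of the list is not reported here and was left out of its sum.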

Additional observations from a re-analysis of the deposited data

How the results depend on the processing

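Of the zinc transporter calls against PBS, the 20 were the same under all alternatives except the 1.5-fold threshold, and SLC30A1 kept its call under every one. With a mean of at least 5 RPKM required, fewer genes were tested and limma called 5622 genes with metformin, 5352 with phenformin and 5005 between the drugs, beside 9729, 9313 and 7923 as reported. Against 1.5-fold it called 4651, 3708 and 1244, and between the drugs this left 1 transporter higher (SLC30A1) and 1 lower (SLC39A10). Leaving out 1 library gave 8104 to 9396, 8397 to 9434 and 6577 to 7863 genes. Limma-voom on recovered reads called 9909, 9569 and 7932. On the TPM scale 4588 genes were higher and 5016 lower with metformin, and 5297 and 4008 with phenformin, beside 3302 and 6427, and 3792 and 5521, as reported. Quantile normalization gave 4396 and 5072, 4522 and 4726, and, between the drugs, 3661 and 3920 beside 4810 and 3113, for which median-centring gave 4043 and 3886. With the replicate block the counts were 9582, 8906 and 7312. Same-numbered libraries deviated together with r of at most 0.08, and of the transporters only SLC39A7 between the drugs lost its call (limma adjusted p = 0.078), while MT1A gained one with metformin (limma adjusted p = 0.025). With phenformin the sign turned for SLC39A4 (0.11 on the TPM scale, 0.17 after quantile normalization) and CA12 (0.069 and 0.21), and the cause was not tested. Between the drugs, SLC30A5 and SLC39A1 were called lower after median-centring, trimmed mean scaling and quantile normalization. Depth limits the lowest genes most, and SLC30A2 and SLC30A10 reached at most 2.60 and 1.27 RPKM in any library.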

Other observations

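Among 20 transporters of other metals, 17 were tested with each drug. With metformin 3 were called higher and 13 lower, beside 28.2% and 54.8% over all genes. With phenformin 3 were called higher and 14 lower, beside 31.2% and 45.4% over all genes. After median-centring the metformin counts were 4 higher and 9 lower, beside 4229 and 5420 of all 11730 genes. The phenformin counts stayed at 3 and 14, beside 4328 and 5010 of all 12172 genes. SLC41A1, a magnesium transporter of the plasma membrane, was at 13.3 ± 0.651 RPKM in PBS, 4.60 ± 0.344 with metformin and 4.49 ± 0.139 with phenformin (SD, n = 3, 3 and 2). MAGT1, a subunit of the oligosaccharyltransferase that also affects magnesium uptake, fell from 34.4 ± 0.479 RPKM to 12.5 ± 0.548 and 12.3 ± 0.380. SLC11A2, the main importer of ferrous iron in the gut, fell from 12.1 ± 0.088 RPKM to 5.45 ± 0.194 and 6.13 ± 0.113. CNNM2, which is needed for magnesium handling in the kidney, rose from 2.79 ± 0.075 RPKM to 5.19 ± 0.189 and 4.401 ± 0.375. The limma adjusted p was at most 5.3e-05 for each of these 4 genes in both comparisons. The other genes called higher, named after their values were seen, were CNNM4 with both drugs, TRPM7 with metformin and ATP13A1 with phenformin.

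Of 12 zinc-dependent enzymes of the secretory pathway and cell surface, 4 were tested. ENPP1, which makes pyrophosphate outside the cell, fell with both drugs (2.70 ± 0.063, 1.34 ± 0.102 and 1.35 ± 0.174 RPKM). CA12, a cell-surface carbonic anhydrase, was at 2.00 ± 0.098, 6.25 ± 0.699 and 1.75 ± 0.119 RPKM, higher with metformin (log2 change 1.59, limma adjusted p = 1.3e-06) and uncalled with phenformin (-0.19, limma adjusted p = 0.13, with the sign turned on the TPM and quantile scales). ADAM17, a sheddase, rose with metformin and fell with phenformin (log2 change 0.51 and -0.99, limma adjusted p = 8.2e-04 and 8.6e-05). ADAM10, a related sheddase, fell with phenformin (-0.82) and with metformin (-0.30), where it was not called after median-centring (limma adjusted p = 0.19). Of 4 citrate genes, CS and SLC25A1 were called lower with metformin, and these and ANKH with phenformin, where 54.8% and 45.4% of all genes were lower. After median-centring 2 of the 4 were called higher and 1 lower with metformin, and 1 higher and 3 lower with phenformin.

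The profile of SLC30A1 over the 8 libraries was nearest to those of GADD45G, NR4A1, PIM1, CITED2 and GADD45B, by Euclidean distance of centred log2(RPKM + 0.1) among 6697 genes with a mean of at least 5 RPKM. GADD45G was the closest at a distance of 0.398, with 5.81 ± 0.653 RPKM in PBS, 22.6 ± 0.868 with metformin and 78.5 ± 10.3 with phenformin. The next was NR4A1 at 0.864 and the last of the 5 was GADD45B at 0.961. The 8 points share their libraries and fall into 3 groups.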
